A study of Homo sapiens with 16 samples.

Results

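SEC24C and PLAU are neighbouring genes on chromosome 10 for which the study's methods list PCR primers. Both SEC24C primers match promoter DNA just before the SEC24C start. The study reports ChIP-PCR of known ERG and GABPα binding targets, without naming the genes in its text. The SEC24C start may therefore have been picked as a known binding site, and its peaks may not be an independent finding. All GABPα and ERG peaks that start between 75120000 and 75450000 of chromosome 10 (hg18) were collected, a stretch of 330 kb that holds both gene starts. The starts were set at 75174100 for SEC24C and 75340900 for PLAU, each rounded to 100 bp, and both genes are read from the plus strand. In all, 29 of the 155269 MACS peaks of 10 ChIP samples lay in the stretch, together with 21 of the 39138 high confidence intervals, which are those called by both MACS and SWEMBL. Merged over the samples wherever they shared at least 1 bp, the MACS peaks of the stretch formed 10 of the 93526 regions of the genome.

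The samples came from VCaP cells, a human prostate cancer (PC) line that carries the TMPRSS2-ERG fusion, and from Jurkat, a line of human leukaemic T cells. VCaP cells gave 1 sample for each target at t0, a name that the labels do not explain, with vehicle (ethanol) and with the synthetic androgen R1881 (methyltrienolone) at 1 nM. The vehicle and R1881 cells had first been kept for 48 h in charcoal-stripped serum. Jurkat cells gave 2 replicates for each target, with no treatment in their labels. The study's methods speak of biological replicates, but the labels do not say whether these were separate cultures. The p-values therefore refer only to these samples, whose differences may be technical. Tests between the targets exchange labels within a cell line, which in VCaP cells means across treatments. No VCaP value has a replicate. Among GABPα samples, MACS called between 9531 and 22108 peaks, and among ERG samples between 6963 and 23947. High confidence intervals numbered from 2851 to 9769 in GABPα samples but only from 2 to 2229 in ERG samples. The lowest of these, 2, was the VCaP ERG sample at t0. Read numbers are not in the files used here, so depth is unknown and no counting interval is given. The antibody catalogue number in the labels of the ERG samples is not the one the study's methods list for ERG. ERG below therefore means the samples labelled ERG.

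GABPα and ERG are both ETS factors, which recognise DNA with a GGAA core. GABPα works in a complex with GABPβ and is known for binding close to the starts of widely used genes. In VCaP cells, the fusion places ERG under the control of an androgen-responsive promoter. SEC24C encodes a subunit of the COPII coat, which selects cargo for transport from the endoplasmic reticulum to the Golgi. PLAU encodes urokinase, a secreted serine protease that turns plasminogen into plasmin and is known for its part in matrix breakdown and invasion.

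The DNA around the starts is shown because, of the 2 gene starts, only that of SEC24C had peaks. Both sequences are from RefSeq (GRCh38.p14, plus strand) and run from 250 bases before a start to 50 after it. They lie at chr10:73744122-73744421 for SEC24C and at chr10:73910882-73911181 for PLAU, positions that cannot be set beside the hg18 ones. RefSeq has another PLAU start upstream of it. In GRCh38.p14, the SEC24C start is 166760 bp from the PLAU start shown and 166238 bp from the other, and the hg18 starts used here are 166800 bp apart. Capitals mark the ETS core, GGAA on the plus strand or TTCC where it is on the minus strand.
SEC24C: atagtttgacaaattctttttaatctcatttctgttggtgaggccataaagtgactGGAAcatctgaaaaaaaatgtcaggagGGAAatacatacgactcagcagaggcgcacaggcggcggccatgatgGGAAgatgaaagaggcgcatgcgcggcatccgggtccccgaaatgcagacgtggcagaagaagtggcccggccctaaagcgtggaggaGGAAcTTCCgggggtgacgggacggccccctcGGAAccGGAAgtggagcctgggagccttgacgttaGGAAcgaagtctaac
PLAU: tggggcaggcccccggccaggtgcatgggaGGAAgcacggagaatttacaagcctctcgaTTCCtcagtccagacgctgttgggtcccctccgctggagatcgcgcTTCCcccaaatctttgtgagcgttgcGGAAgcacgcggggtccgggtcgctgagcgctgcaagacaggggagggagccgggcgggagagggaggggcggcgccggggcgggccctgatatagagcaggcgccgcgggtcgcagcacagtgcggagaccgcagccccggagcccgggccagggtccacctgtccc

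The SEC24C window held 8 GGAA cores on both strands together, against 4 in the PLAU window shown and 3 in the other. A GGAA core is common, with at least 1 in 95.5% of the 35116 RefSeq windows of this length. How often a window holds as many as 8 is not given here. The longer form CCGGAAG, which contains GGAA, occurred in 10.3% of them. It was found at 2 places in the SEC24C window, from position 5 to 11 after the start on the plus strand and from -28 to -22 on the minus strand, and in neither PLAU window. TGANTCA, read by AP-1 factors, was in 7.71% of all windows and in none of the 3 windows of these genes. GC content was 54.3% for SEC24C, 70% for the PLAU window shown and 48.7% for the other, and the median over all windows was 58.7%. These matches describe letters and not bound sites.

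At the SEC24C start, GABPα peaks were called in all 5 GABPα samples and ERG peaks in none of the 5 ERG samples. MACS scores a peak by its p-value, as −log10 p times 10, and lists none below 50. In VCaP cells, the GABPα peak over the start scored 1939.32 at t0, 3100 with vehicle and 3100 with R1881. In Jurkat cells, it scored 1184.53 in replicate 1 and 1343.52 in replicate 2. The Jurkat scores were thus the lowest, but scores of different libraries depend on their read numbers. Each peak was therefore also ranked in its own sample, by the share of the MACS peaks of that sample with a lower score. These shares were 97.6% at t0, 97.8% with vehicle and 97.7% with R1881 in VCaP cells, and 97% and 97.7% in Jurkat replicates 1 and 2. Their mean was 97.55% ± 0.31 (SD, n = 5 samples of different cells and treatments). The score of 3100 recurred in 268 peaks with vehicle and 303 with R1881, with 45 and 40 peaks above it, so a rank of 97.8% or 97.7% is the highest that a tied peak can take there. In Jurkat replicates 1 and 2, 640 and 515 peaks scored above the SEC24C peak. The ranks therefore do not show whether the cell lines differed.

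The ERG samples had no MACS peak within 10 kb of the SEC24C start. The VCaP t0 sample among them had only 2 high confidence intervals in the whole genome, so its missing peak says little. With a missing peak set to 0, GABPα was higher by 97.55 percentage points (exact permutation test with the target labels permuted within each cell line, two-sided, p = 0.0167, the smallest that 120 arrangements allow). Since every ERG value is an assigned 0, this test restates the calls in 5 of 5 against 0 of 5 samples. Nor is it an independent test if the SEC24C start was picked as a known binding site. With ERG and GABPα paired by VCaP treatment and Jurkat replicate number (replicate block), the exact permutation p was 0.0625, the smallest possible there and no longer under 0.05. Within VCaP cells alone the difference was 97.69 points, with p = 0.1 by the same exact test, the smallest possible there. The nearest ERG peaks lay far from the start, at 236 kb for t0, 155 kb for vehicle, 142 kb for R1881, and 207 and 142 kb for Jurkat replicates 1 and 2.

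**Figure D1:**
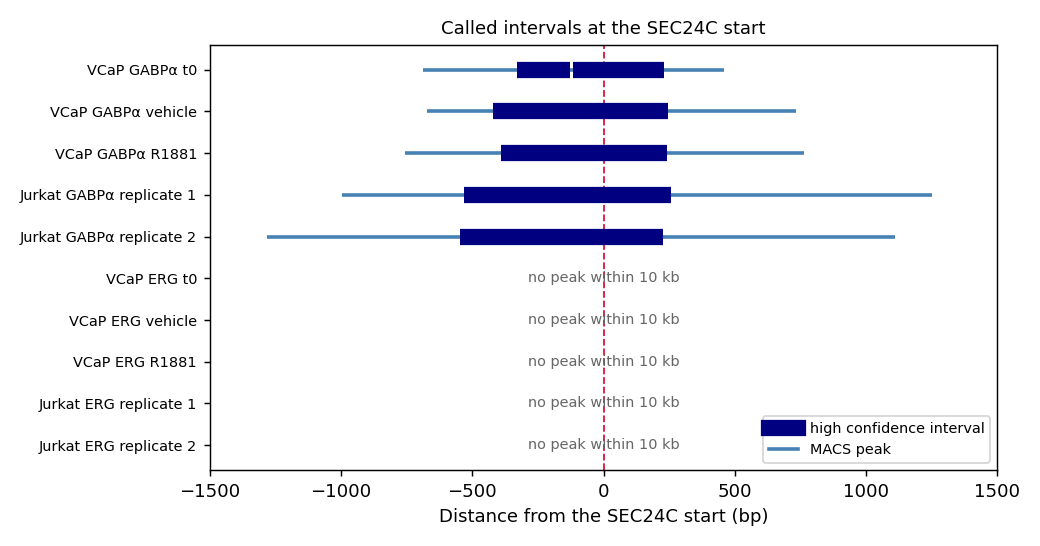
Intervals called at the SEC24C start in 10 ChIP samples, by distance from the start in bp; thin lines are MACS peaks and thick bars are high confidence intervals. The thick bars of the 5 GABPα samples end between 225 and 258 bp after the start, whereas the 5 ERG samples have no peak within 10 kb.

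The high confidence intervals at SEC24C were similar in position between samples. They ended 229 bp after the start at t0, 244 bp with vehicle and 241 bp with R1881, and 258 and 225 bp after it in Jurkat replicates 1 and 2. These right edges fell within 33 bp of each other. The left edges were spread over 217 bp, at 331, 422 and 390 bp before the start in VCaP cells and at 533 and 548 bp before it in Jurkat cells. In Jurkat cells the intervals thus reached further upstream than in any VCaP sample. The whole MACS peak was also wider there, at 2247 and 2391 bp against 1149, 1406 and 1522 bp in VCaP cells. The peaks centred at -13.8 and 41.5 kb from the start, described below, were likewise wider in Jurkat cells. At -13.8 kb they measured 1923 and 1909 bp against 1053, 1255 and 1209 bp in VCaP cells. At 41.5 kb they measured 2040 and 1769 bp against 933, 1045 and 1034 bp. The greater width was thus not particular to the SEC24C start. Over all GABPα peaks of a sample, most of them with lower scores, the median MACS width was 677 and 634 bp in Jurkat cells and from 631 to 751 bp in VCaP cells. At t0 the interval was split into 2 pieces by a gap of 11 bp. Apart from this gap, the bases from 75173769 to 75174325, which is 331 bp before to 225 bp after the start, were in a high confidence interval in all 5 samples.

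Around SEC24C, GABPα peaks were strong at 2 further places in all 5 GABPα samples. One region was centred upstream, at -13.8 kb from the start (75159300 to 75161225), and the other 41.5 kb downstream (75214550 to 75216590). Upstream, the scores were 1913.66, 3100 and 3100 in VCaP cells at t0, with vehicle and with R1881, and 971.2 and 797.28 in Jurkat replicates 1 and 2. Downstream, they were 1030.84, 3100 and 3021.7 in VCaP cells and 573.84 and 683.55 in Jurkat cells. At t0 and in both Jurkat replicates, the start thus had the highest score of the 3 regions, the upstream region the next and the downstream region the lowest. With vehicle all 3 regions were tied at 3100. With R1881 the start and the upstream region were tied at 3100, and the downstream region scored lower. In that sample 376 peaks scored above the downstream region against 40 above the start, but the 376 include the 303 tied at 3100. The ranks were close, at 97.5% for the downstream region and 97.7% for the start. No ERG sample had a peak in any of these regions.

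**Figure D2:**
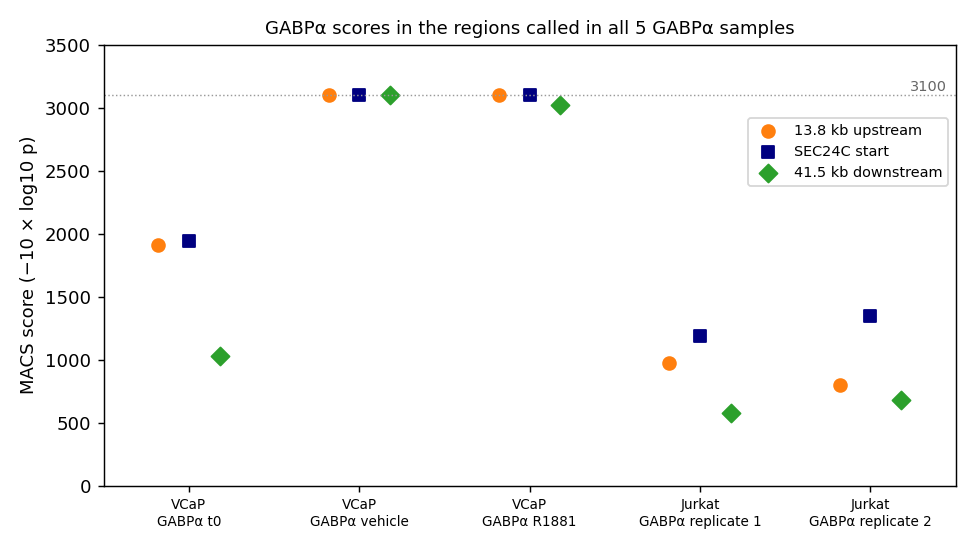
MACS scores (−log10 p times 10, linear axis) of the GABPα peak in the 3 regions called in all 5 GABPα samples, 1 point for each region and sample. The SEC24C start is highest or tied in every sample, and the dotted line marks the recurring score of 3100.

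The 10 regions of the stretch were taken because of SEC24C and PLAU and are not a random draw from the genome. Of the 10 regions, 3 had a GABPα MACS peak in all 5 GABPα samples, compared with 2.55% of all regions of the genome. The same 3 had a GABPα high confidence peak in all 5 samples, which held for 1.88% of all regions. Their pattern over the 10 samples, GABPα in every GABPα sample and no ERG, was shared by 2179 regions of the genome (2.33%), and 1697 of these had high confidence peaks in the same samples too. These regions carry no gene names in the files. Between SEC24C and PLAU, RefSeq lists 9 genes, 5 of them protein-coding (POFUT4, CHCHD1, ZSWIM8, NDST2 and CAMK2G, in this order), but no hg18 annotation was used and no peak was assigned to them.

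At the PLAU start, no peak of either target was called. None of the 10 samples had a MACS peak within 10 kb of it, nor within 25 kb, so the GABPα and ERG values were all 0 and the exact permutation test had nothing to compare (p = 1). The nearest GABPα peak was 80.9 kb from the start at t0 and 125 kb with vehicle and with R1881, and 44.7 kb in both Jurkat replicates. The nearest ERG peak was 68.7 kb away at t0, 254 kb with vehicle and 145 kb with R1881 in VCaP cells. In Jurkat cells it was 45.4 kb away in replicate 1 and 99.4 kb in replicate 2. High confidence ERG peaks were further still. The nearest to PLAU was 3059 kb away with vehicle, 324 kb with R1881 and 374 kb in each Jurkat replicate, and chromosome 10 held none at t0. Without read numbers, enrichment too weak to be called as a peak was not detectable here.

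**Figure D3:**
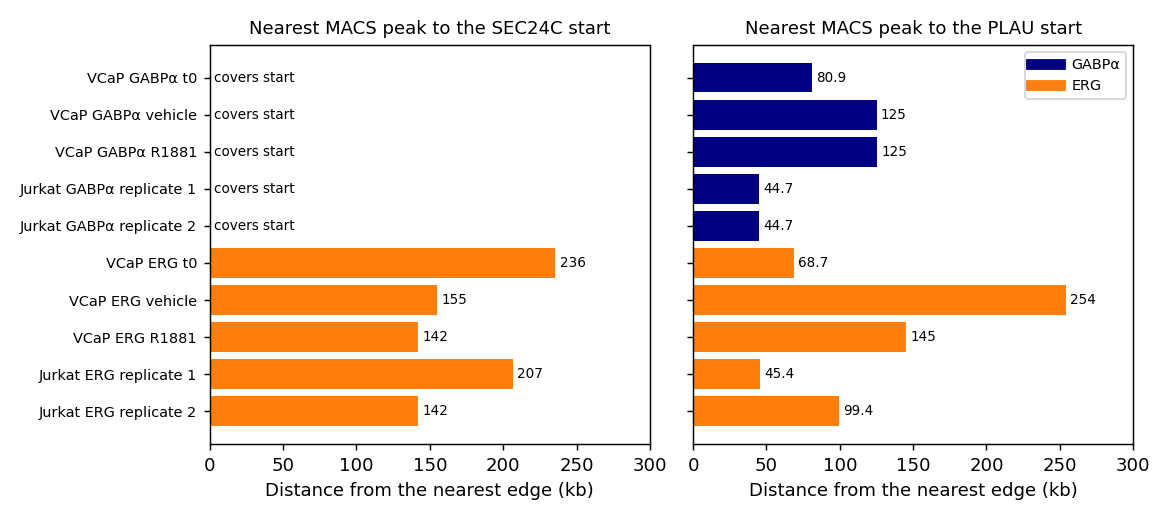
Distance in kb from the SEC24C start (left) and the PLAU start (right) to the nearest edge of the closest MACS peak, 1 bar for each of 10 samples. GABPα peaks cover the SEC24C start in 5 of 5 samples, whereas the closest peak to PLAU is 44.7 kb away in Jurkat cells.

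Further GABPα peaks, in 4 regions nearer to PLAU, were called in Jurkat cells alone. The region centred upstream of PLAU, at -45.4 kb (75294839 to 75296229) scored 332.56 in Jurkat replicate 1 and 287.66 in replicate 2, above 80.3% and 78.6% of the GABPα peaks of these samples. It was a high confidence peak in both replicates. The 3 other regions lay downstream of PLAU and were called by MACS alone. At 45.6 kb the scores were 135.65 and 65.46, at 80.9 kb they were 465.42 and 220.08, and at 99.6 kb they were 217.51 and 265.65. These 4 of the 10 regions, with a GABPα peak in both Jurkat replicates and in no VCaP GABPα sample, compare with 12.7% of all regions.

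VCaP cells had 2 weaker GABPα regions without a Jurkat peak. Their patterns over the 10 samples were found in 3.18% of all regions for the first described here and in 4.41% for the other. The one 28.3 kb downstream of the SEC24C start was called with vehicle (score 179.41) and with R1881 (score 307.35) but not at t0, and in neither case at high confidence. These peaks ranked above 55.6% and 67.5% of the peaks of their samples, and with 1 sample per treatment this difference has no replicate check. The other, upstream of PLAU at -81.2 kb, was called at t0 with a score of 50.36, close to the lowest in the file.

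In number, GABPα had 4 MACS peaks in the stretch in each VCaP sample and 7 in each Jurkat replicate. The groups did not overlap (exact permutation test, two-sided, p = 0.1, the smallest that 3 against 2 samples allow). Jurkat samples, however, also had more GABPα peaks in all. Per 10000 MACS peaks of the sample, the stretch held 4.2 at t0, 2.82 with vehicle and 2.66 with R1881, and 3.26 and 3.17 in Jurkat replicates 1 and 2, and on this scale the cell lines overlapped. Of the 26 GABPα peaks, 17 held a high confidence interval, against 35.2% of all GABPα MACS peaks. Spread evenly over chromosome 10, the GABPα peaks of a sample would place between 0.654 and 2.8 in a stretch of this length. The stretch was chosen for its gene starts, so an even spread is only a rough scale.

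ERG peaks numbered 3 in the 5 samples, with scores from 50.66 to 77.35. None was at high confidence, against 7.46% of all ERG MACS peaks, and 3 peaks are too few to differ clearly from that share. VCaP cells had 1 at t0, 68.8 kb downstream of PLAU (75409632 to 75409765), with a score of 54.52, above 35.1% of the peaks of that sample. With vehicle and with R1881, no ERG peak was called in the stretch, although these samples had 19504 and 23947 MACS peaks. Jurkat replicate 1 had 1 ERG peak 45.6 kb downstream of PLAU with a score of 50.66, and replicate 2 had 1 at 99.6 kb with a score of 77.35. These peaks ranked above 2.28% and 57.7% of the peaks of their samples, so the second was not low for its sample. Neither was repeated in the other replicate. An even spread over chromosome 10 would place between 0.487 and 2.27 ERG peaks of a sample here.

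An ERG peak was present in 3 of the 10 regions, against 62.5% of all regions. Both Jurkat ERG peaks lay in regions where GABPα was called in both Jurkat replicates, and these 2 regions were the only ones of the stretch with peaks of both targets, against 12.6% of all regions. In the region at 45.6 kb, ERG scored 50.66 in replicate 1 and GABPα 135.65 and 65.46. In the region at 99.6 kb, ERG scored 77.35 in replicate 2 and GABPα 217.51 and 265.65. GABPα thus scored higher in both, although scores of different libraries are not on a common scale.

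**Figure D4:**
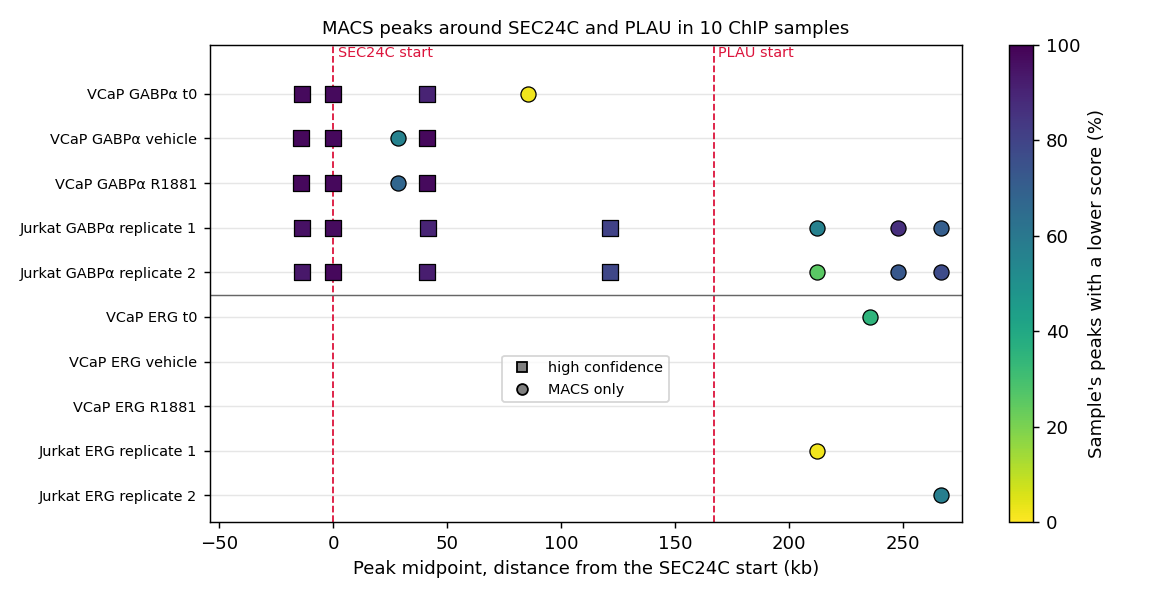
MACS peaks of 10 ChIP samples across the stretch, by distance of the peak midpoint from the SEC24C start in kb; colour gives the share of the peaks of that sample with a lower score, squares are high confidence peaks and circles MACS only, and dashed lines mark the gene starts. GABPα peaks align in 3 columns around SEC24C in 5 samples, 4 further columns hold both Jurkat GABPα replicates, and only 3 ERG peaks are present.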

How the data were processed

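Deposited peak files of 10 ChIP-seq samples were analysed, and the 6 input samples are not used here. Per the study's methods and the labels, the authors aligned reads to hg18 with BWA 0.5.5, removed duplicates and reads of low alignment quality, and ran MACS and SWEMBL on every ChIP sample with an input as control, without pooling replicates. The MACS version is not given in the sources used here. The deposited MACS score is −log10 p times 10. High confidence files hold intervals called by both programs, 3 of these files without a score, so the MACS peak under an interval gave its score in every sample. In the file headers, vehicle and R1881 samples of a target share an input, as do the Jurkat replicates of a target.

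Starts were converted to 1-based positions. Overlaps and merged regions were computed in Python 3.11.15 (numpy 2.4.6), and simulated intervals were used to check them against bedtools 2.31.1 and to test the permutation function. The value tested at each start was the within-sample rank of the best MACS peak within 10 kb. SEC24C and PLAU are the genes named by rule, with every region of the stretch. The genes, the stretch and the tests were chosen with earlier results of these data known, and the comparison of peak numbers between cell lines was added after the values were seen. Alternatives were other distances, the raw score, high confidence peaks, a minimum score of 100, other overlap and merging rules, pairing of the replicates and samples left out. Promoter windows came from RefSeq. A further planned motif is not reported here.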

Additional observations from a re-analysis of the deposited data

How the results depend on the processing

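The difference at the SEC24C start, 97.55 percentage points, kept its value with peaks counted within 1, 5 or 25 kb, with high confidence peaks and with a minimum score of 100, at an exact permutation p = 0.0167 in each case. With the raw score in place of the rank it was 2133.47 score units, with the same p. Peaks counted within 50 and 100 kb, chosen after seeing the data, gave 97.55 again. With fewer arrangements the exact p did not fall under 0.05 although it was the smallest possible each time. With the replicate block, in which ERG and GABPα were paired by VCaP treatment and by Jurkat replicate number, the exact sign permutation of 97.55 points gave p = 0.0625. The exact permutation gave p = 0.1 for 97.69 points in VCaP samples alone and p = 0.0556 for 97.55 points without the t0 samples. Without either Jurkat replicate it ranged from 97.53 to 97.69 points (exact permutation p = 0.05). These p-values say nothing about stability.

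The labels do not say whether equal Jurkat replicate numbers link an ERG and a GABPα sample. The replicate differences in ERG and GABPα rank correlated at 0.02 over 1580 regions called in all 4 Jurkat samples. This value cannot decide the question, since samples of a shared culture need not differ alike for both targets. At the PLAU start the difference was 0 under every planned setting, the replicate block included. Peaks within 50 kb gave 31.32 points (exact permutation p = 0.333), all from Jurkat cells, since no VCaP sample had a peak there. With every VCaP value at 0, this p was the smallest these values allow and does not show a lack of difference. Peaks within 100 kb gave 14.46 points (exact permutation p = 0.6). Both distances were chosen after seeing the data.

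Of the 26 GABPα peaks, 17 held a high confidence interval, and these intervals numbered 21 because some peaks held 2 pieces. The 26 peaks became 24 with a score of at least 100 and 22 with the stretch shortened by 50 kb. The 3 ERG peaks became 0 at high confidence, 0 with a score of at least 100 and 1 with the stretch shortened. The 2 regions with both targets became 0 under the first 2 of these settings and 0 in VCaP cells alone, and 1 without either Jurkat replicate. They stayed 2 when ERG and GABPα peaks had to share 50% of the shorter one and with peaks merged within 500 bp. Depth is unknown, so a missing peak does not show a missing interaction.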
